A study of Homo sapiens with 18 samples.

Results

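The co-repressor machinery that a KRAB domain recruits was described through 10 genes, picked by name for their roles, with earlier results of these data known: TRIM28, SETDB1, ATF7IP, CBX1, CBX3, CBX5, CHD3, CHD4, HDAC1 and HDAC2, out of 24407 genes in the count tables. RNA was sequenced from 18 libraries of K562, a human erythroleukaemia cell line, in 6 groups of 3. KRAB_CR4 and KRAB_CR10 had received lentivirus for dCas9-KRAB, a nuclease-dead Cas9 fused to the KRAB repressor domain, with a guide RNA (gRNA) named CR4 or CR10 aimed at HS2, an enhancer of the beta-globin genes. dCas9_CR4 and dCas9_CR10 had received dCas9 without the repressor domain and the same gRNAs, KRAB_no_gRNA had received dCas9-KRAB with no gRNA at all, and the no_lentivirus cells were left untransduced. The lentiviral cells had been treated with 4 µg/ml polybrene at transduction and with 1 µg/ml puromycin from about 96 hours on. Whether the untransduced cells saw either agent, whether the lentiviral cells were clones or pools, and whether the 3 libraries of a group came from separate cultures was not stated, so every p-value below measures the spread between libraries, which may be technical.

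In a cell that makes a KRAB zinc-finger protein, or here a KRAB fusion, the KRAB domain binds KAP1, the scaffold protein encoded by TRIM28. KAP1 brings in the H3K9 methyltransferase SETDB1 with its partner ATF7IP, the HP1 proteins that bind methylated H3K9, and the NuRD complex, whose CHD3 or CHD4 ATPase moves nucleosomes and whose HDAC1 and HDAC2 remove histone acetyl groups. K562 cells express these factors themselves, so the amount of their mRNA is part of the setting in which dCas9-KRAB acts.

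TRIM28 (NM_005762) lies on chromosome 19, SETDB1 (NM_001145415, NM_012432 and NM_001243491) and HDAC1 (NM_004964) on chromosome 1, ATF7IP, CBX5 and CHD4 (NM_001273) on chromosome 12, CBX1 and CHD3 on chromosome 17, CBX3 on chromosome 7 and HDAC2 (NM_001527 and NR_033441) on chromosome 6. Library totals ran between 22805964 and 34032962 counts. All counts were even, which was read as each sequenced fragment counted as its 2 mates. All 10 genes passed the filter on low counts, with 722 counts in the lowest library for ATF7IP and 36246 counts in the highest library for TRIM28. All 8 erythroid and K562 markers were expressed at 1 CPM or more. Their summed level was 2035 to 3538 CPM in the lentiviral libraries and 2423 to 3610 CPM in the untransduced ones. For all marker values CPM are counts scaled by the library total alone. Elsewhere CPM are counts scaled to a common library size by TMM. Of the 4 B cell markers MS4A1 was at 0 in every library, and the B cell sum reached at most 2.60 CPM. The 5 fibroblast or epithelial markers, of which VIM and KRT18 are expressed in many cultured lines, were all at 1 CPM or more on average, with a sum of 837 to 1174 CPM in lentiviral and 890.3 to 945 CPM in untransduced libraries, most of it VIM (mean 481 CPM), KRT18 (383 CPM) and EPCAM (93.6 CPM). In the lentiviral libraries, those numbered 3 stood apart from those numbered 1 and 2 in 53.8% of the genes tested, and results are given below with and without them where a call depended on it.

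The promoters of the 3 genes that differed between lentiviral and untransduced cells are shown first, since the later results turn on these genes: CBX3, which encodes HP1 gamma, SETDB1 and HDAC2. Each is a window of 250 bases before to 50 bases after the annotated start from RefSeq on GRCh38.p14, written 5′ to 3′ on the gene's strand, with motif matches in capitals. The CBX3 window lies at chr7:26201193-26201492 on the plus strand, the SETDB1 window at chr1:150926013-150926312 on the plus strand (the first of 2 starts in the table) and the HDAC2 window at chr6:113971099-113971398 on the minus strand.
CBX3: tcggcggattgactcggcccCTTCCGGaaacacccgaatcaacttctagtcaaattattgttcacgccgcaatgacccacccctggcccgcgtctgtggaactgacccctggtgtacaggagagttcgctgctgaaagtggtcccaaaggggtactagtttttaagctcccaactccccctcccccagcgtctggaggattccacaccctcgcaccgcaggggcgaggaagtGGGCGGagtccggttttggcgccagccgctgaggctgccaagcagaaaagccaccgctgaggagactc
SETDB1: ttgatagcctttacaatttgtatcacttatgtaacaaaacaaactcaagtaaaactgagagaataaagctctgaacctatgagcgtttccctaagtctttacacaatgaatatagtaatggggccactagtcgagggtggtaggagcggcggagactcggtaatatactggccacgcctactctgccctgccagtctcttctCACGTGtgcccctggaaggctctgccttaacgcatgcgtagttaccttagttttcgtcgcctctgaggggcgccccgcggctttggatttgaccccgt
HDAC2: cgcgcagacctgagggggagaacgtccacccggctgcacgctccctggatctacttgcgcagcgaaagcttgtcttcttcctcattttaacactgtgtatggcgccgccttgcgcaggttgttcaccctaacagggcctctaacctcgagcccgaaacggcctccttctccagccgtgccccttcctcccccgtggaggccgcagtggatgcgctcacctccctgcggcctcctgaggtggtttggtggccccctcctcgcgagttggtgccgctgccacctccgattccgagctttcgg
Both strands were searched for 8 motifs: the GC box (GGGCGG), the CCAAT box (CCAAT), NRF1 (GCGCA, any base, then GCGC), the E-box (CACGTG), ETS (CCGGAAG), YY1 (AANATGGC), the cAMP response element CRE (TGACGTCA) and the TATA box (TATAAA). CBX3 held 1 ETS match on the reverse strand and 1 GC box, SETDB1 held 1 E-box, and HDAC2 held none of these letters. Of 27305 RefSeq promoter windows 10.7% held the ETS letters, 44.6% the GC box and 7.43% the E-box. Among the 9 of these co-repressor genes with a window in the table, 2 held the ETS letters, 5 the GC box and 2 the E-box. A match is a string of letters in the window and not a measured binding site.

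Per kilobase of coding sequence, the HP1 gene CBX5 had the highest level in every library, with a mean of 698 CPM per kb over the 18 libraries (569 to 1025). CBX3 followed with 419 CPM per kb (250.1 to 543) and TRIM28 with 375 CPM per kb (295 to 439). CBX1, which encodes HP1 beta, stood at 207 CPM per kb, HDAC2 at 183, HDAC1 at 171 and CHD4 at 137 CPM per kb. SETDB1 at 16.9, CHD3 at 16.7 and ATF7IP at 11.2 CPM per kb were the lowest. The scaffold and the HP1 genes thus lay far above the methyltransferase pair on this scale.

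Neighbours in this order separated in all 18 libraries, with ranges that did not overlap, at 3 places: CBX5 above CBX3, TRIM28 above CBX1, and CHD4 above SETDB1. Elsewhere the ranges overlapped. CBX3 was above TRIM28 in 14 of 18 libraries, CBX1 above HDAC2 in 16, HDAC2 above HDAC1 in 12, HDAC1 above CHD4 in 17 and CHD3 above ATF7IP in 17, while SETDB1 was above CHD3 in 7 only. Without scaling for length TRIM28 averaged 939 CPM, 60th of 14720 genes, and CHD4 averaged 784 CPM, 91st. The level of CBX5 depends on the length used: its 3 counted transcripts of 11528, 894 and 1832 bases took 33.9%, 33.1% and 33.0% of its counts, and per kilobase of the longest one its level was 34.7 CPM. In 48 gene pairs with 1 coding length and transcripts of which the longer was a median 2.81 times the shorter, the counts of the longer were a median 1.03 times those of the shorter, so coding length was used for levels.

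The genes varied unequally over the 18 libraries. CBX1 had a coefficient of variation of 5.60%, HDAC1 9.68%, CHD3 10.4%, TRIM28 11.9% and HDAC2 12.6%. SETDB1 varied by 16.0%, CBX5 by 17.3%, CHD4 by 18.7%, CBX3 by 18.8% and ATF7IP, the least abundant, by 22.4%.

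**Figure D1:**
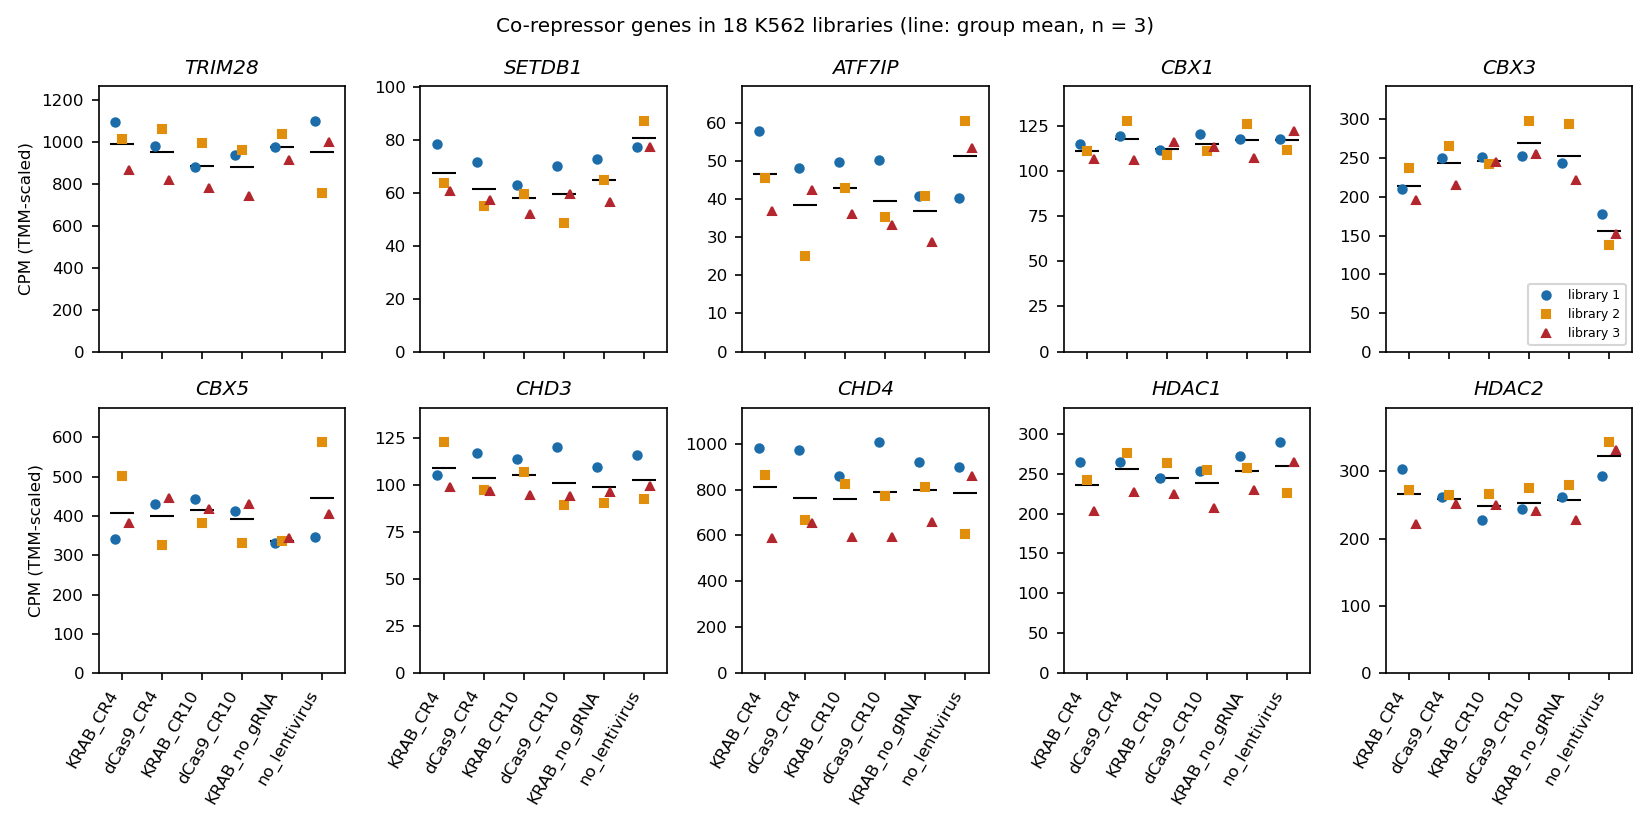
Level of each of the 10 co-repressor genes in every library, in TMM-scaled CPM (y axis, linear), by group (x axis); symbols show the library number and black lines the mean of 3 libraries. CBX3 lies between 196 and 298 CPM in the 15 lentiviral libraries, all above the untransduced libraries at 137 to 178 CPM.

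Expression of the co-repressor genes was first compared between the repressor with a gRNA and its controls, which asks whether silencing at HS2 came with a change in the machinery itself. None of the 10 genes passed the threshold in any of these comparisons. The on-target gene HBE1, the embryonic epsilon-globin gene, chosen here after its values were seen, stood at 61.6 ± 6.20 CPM in KRAB_CR4 and 85.0 ± 10.96 CPM in KRAB_CR10, against 457 ± 17.8 CPM in KRAB_no_gRNA (SD, n = 3 each). It stood at 359 ± 38.2 CPM in dCas9_CR4, 381 ± 46.7 CPM in dCas9_CR10 and 604 ± 62.5 CPM in no_lentivirus.

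TRIM28 had 1092, 1012 and 864 CPM in KRAB_CR4, against 979, 1059.8 and 819.7 CPM in dCas9_CR4. In KRAB_CR10 it had 880.0, 994 and 781 CPM, against 936, 958 and 739.9 CPM in dCas9_CR10. KRAB_no_gRNA held 974, 1038 and 912 CPM. The groups overlapped throughout, and the library numbered 3 was the lowest of each group. The log2 fold change of TRIM28 between KRAB and dCas9 was 0.05 with CR4 (95% interval -0.27 to 0.38) and 0.01 with CR10 (-0.31 to 0.33), and the mean of both was 0.03 (-0.19 to 0.26).

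The methyltransferase SETDB1 had 78.4, 63.6 and 60.7 CPM in KRAB_CR4, against 71.8, 55.1 and 57.3 CPM in dCas9_CR4, and 62.9, 59.7 and 51.9 CPM in KRAB_CR10, against 70.2, 48.7 and 59.7 CPM in dCas9_CR10. Its mean log2 difference over both gRNAs was 0.05 (-0.18 to 0.28). ATF7IP, which stabilises SETDB1, had 57.8, 45.4 and 36.8 CPM in KRAB_CR4, against 48.2, 25.2 and 42.3 CPM in dCas9_CR4. The groups overlapped for both genes. ATF7IP had the widest interval of the 10, at 0.20 (-0.17 to 0.56).

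Among the HP1 genes CBX3 had the smallest p. It had 209.5, 238 and 196 CPM in KRAB_CR4, against 250.4, 265 and 215 CPM in dCas9_CR4. In KRAB_CR10 it had 251, 243 and 245 CPM, against 253, 298 and 255 CPM in dCas9_CR10. The CR10 groups did not overlap and the CR4 groups did, and each library of a KRAB group was below the dCas9 library with the same number. The mean log2 difference was -0.16 (-0.36 to 0.04, unadjusted p = 0.116 and adjusted p = 1.00 by edgeR's quasi-likelihood test with Benjamini-Hochberg adjustment). The same difference was 0.05 (-0.22 to 0.33) for CBX5 and -0.06 (-0.22 to 0.09) for CBX1.

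The NuRD ATPase CHD4 had a difference of 0.01 (-0.33 to 0.36) and CHD3 of 0.06 (-0.15 to 0.28). The deacetylases HDAC1 and HDAC2 had differences of -0.04 (-0.24 to 0.16) and 0.00 (-0.18 to 0.19). All 10 intervals of the mean difference lay within 0.781- to 1.48-fold; the narrowest was that of CBX1, at 0.862- to 1.07-fold. With the library number as a block in a fit of the 15 lentiviral libraries, the 10 intervals lay within 0.828- to 1.35-fold. That of CBX3 was then -0.27 to -0.02 on the log2 scale, with an unadjusted p of 0.0257 and an adjusted p of 0.915.

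Over all 14720 genes tested, 0.0204% passed in each of KRAB_CR4 minus dCas9_CR4, KRAB_CR10 minus dCas9_CR10, KRAB_CR4 minus KRAB_no_gRNA and KRAB_CR10 minus KRAB_no_gRNA, and 0.0272% in the mean of KRAB minus dCas9. In these 5 comparisons 0 of the 10 co-repressor genes passed with edgeR, and none of them reached an unadjusted p of 0.05. DESeq2 called 0 of the 10 as well, where it called 0.0408% of all genes for KRAB_CR4 and 0.0272% for KRAB_CR10 against KRAB_no_gRNA, 0.034% for KRAB_CR4 and 0.0272% for KRAB_CR10 against dCas9, and 0.0476% for the mean. With the library number as a block the calls were again 0 of 10. The shares of all genes that passed were 0.0411% for KRAB_CR4 and 0.0479% for KRAB_CR10 against KRAB_no_gRNA. They were 0.0548% for KRAB_CR4 and 0.0479% for KRAB_CR10 against dCas9, and 0.0959% for the mean. In that fit 3 of the 10 had an unadjusted p under 0.05 for KRAB_CR4 against KRAB_no_gRNA, as did 1264 of 14605 genes. For KRAB_CR10 against KRAB_no_gRNA it was 1 of the 10 and 1504 of all genes. Against dCas9 it was 0 of the 10 with either gRNA, and 730 of all genes for KRAB_CR4 and 325 for KRAB_CR10. For the mean it was 1 of the 10 and 763 of all genes. The median log2 fold change of the 10 was 0.04 for KRAB_CR4 minus KRAB_no_gRNA, with a range of -0.24 to 0.34, where that of all genes was -0.00. It was -0.05 for KRAB_CR10 minus KRAB_no_gRNA, with a range of -0.16 to 0.30, where that of all genes was -0.02.

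The gRNAs without the repressor domain gave the same count. With a background of 0% of genes each, 0 of the 10 passed with edgeR or DESeq2 in dCas9_CR4 minus KRAB_no_gRNA (log2 fold changes of -0.08 to 0.25; 66 of all genes had an unadjusted p under 0.05) and in dCas9_CR10 minus KRAB_no_gRNA (-0.15 to 0.22; 175 of all genes). KRAB_CR4 minus KRAB_CR10 also gave 0 of 10 (-0.20 to 0.22; 132 of all genes), as did the difference of the KRAB effects, CR4 minus CR10 (-0.15 to 0.17; 51 of all genes). None of the 10 had an unadjusted p under 0.05 in these 4 comparisons (with the block CBX3 did in KRAB_CR4 minus KRAB_CR10, at an adjusted p of 0.999), and the smallest unadjusted p of the difference of effects was 0.441, for HDAC1. The comparisons with KRAB_no_gRNA share its 3 libraries.

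**Figure D2:**
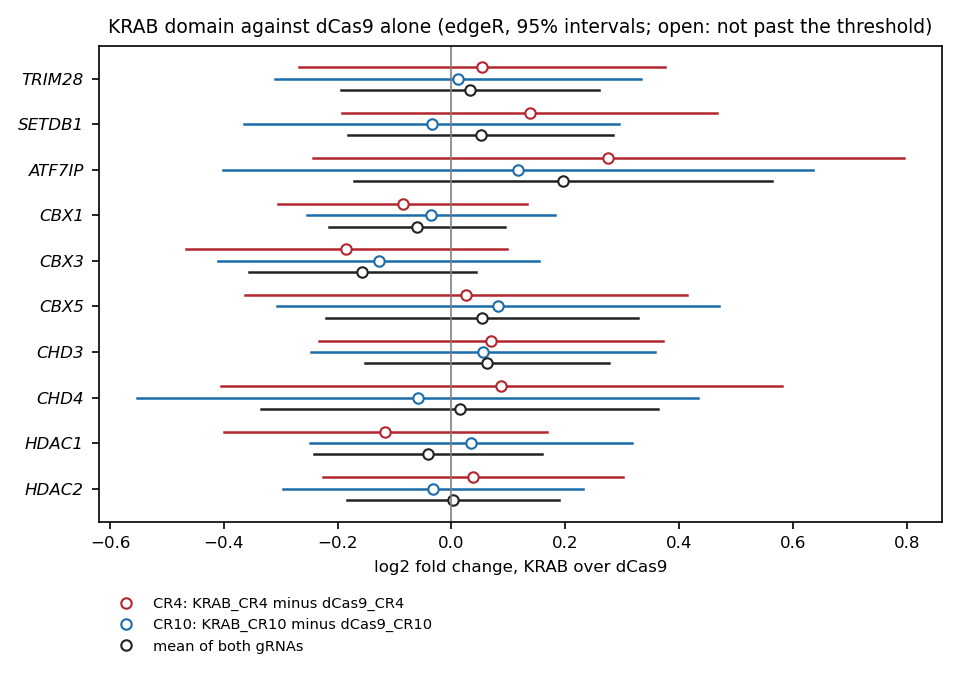
Log2 fold change of KRAB over dCas9 (x axis) for each co-repressor gene (y axis) with CR4 in red, with CR10 in blue and as the mean of both in black; bars are 95% intervals and open symbols mark an adjusted p of 0.05 or more. Every interval includes 0, and the mean of both runs between CBX3 at -0.16 and ATF7IP at 0.20.

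The lentiviral cells were next compared with the untransduced cells, which asks what the virus, selection and constructs did to the machinery as a whole. CBX3 was higher in lentiviral cells, and SETDB1 and HDAC2 were lower. The other 7 genes did not pass the threshold. With 18.7% of all genes passing in the mean of the 5 lentiviral groups against no_lentivirus (7.55% higher and 11.2% lower), the count of 1 higher and 2 lower among 10 was read as 3 genes in a broad difference. In bulk RNA, fewer cells of a kind and less RNA per cell cannot be told apart.

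CBX3 ran from 196 through a median of 245 to 298 CPM in the 15 lentiviral libraries, against 178, 137 and 152 CPM in the untransduced ones. The ranges did not overlap, and each of the 5 lentiviral groups had a higher mean than no_lentivirus. CBX3 averaged 245 ± 28.2 CPM in lentiviral cells (SD, n = 15) and 156 ± 20.6 CPM in untransduced cells (SD, n = 3), a log2 fold change of 0.65 ± 0.11 (SE), or 1.57-fold with a 95% interval of 1.34 to 1.84, with an adjusted p of 0.00158 by edgeR. CBX3 passed in 25 of 26 alternative fits with log2 fold changes of 0.53 to 0.74. The exception kept only the libraries numbered 3 of the lentiviral groups (adjusted p = 0.214); with 1 library per lentiviral group its spread comes from the 3 untransduced libraries alone, and 0 genes passed in it (2777 had an unadjusted p under 0.05). Without no_lentivirus library 2 the log2 fold change was 0.56 with an adjusted p of 0.0264.

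Of the 2 counted CBX3 transcripts, NM_007276 took 47.7% of the counts (46.8% to 48.9% over the 18 libraries) and NM_016587 took 52.3%. The RefSeq annotation names 10 CBX3 pseudogenes, of which 1 is in the count tables, and how reads with several alignments were assigned is not given in the sources used here, so the level of CBX3 is uncertain by that assignment. HNRNPA2B1, an RNA-binding protein gene and the nearest coding gene to CBX3, was looked up after the CBX3 values were seen. It averaged 1585 ± 112 CPM in lentiviral cells and 1245 ± 358 CPM in untransduced cells, a log2 fold change of 0.35 ± 0.13 that did not pass (adjusted p = 0.0643).

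HDAC2 ran from 222 through a median of 262 to 303 CPM in the lentiviral libraries, against 293, 343 and 332 CPM in the untransduced ones. The only overlap was KRAB_CR4 library 1, at 303 CPM. HDAC2 averaged 257 ± 22.3 CPM in lentiviral cells and 323 ± 26.6 CPM in untransduced cells, a log2 fold change of -0.33 ± 0.09 with an adjusted p of 0.0236 by edgeR. That call was lost without no_lentivirus library 2 (adjusted p = 0.169), without no_lentivirus library 3 (0.102) and with lentiviral libraries numbered 3 alone (0.220), while the log2 fold change lay between -0.41 and -0.29 when single libraries were left out.

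SETDB1 ran from 48.7 through a median of 60.7 to 78.4 CPM in the lentiviral libraries, against 77.3, 87.3 and 77.3 CPM in the untransduced ones. Again the only overlap was KRAB_CR4 library 1, at 78.4 CPM. SETDB1 averaged 62.3 ± 8.22 CPM in lentiviral cells and 80.6 ± 5.79 CPM in untransduced cells, a log2 fold change of -0.37 ± 0.12 with an adjusted p of 0.0354 by edgeR. That call was lost without KRAB_CR4 library 2 (adjusted p = 0.0514), without no_lentivirus library 2 (0.226), without no_lentivirus library 3 (0.0862) and with lentiviral libraries numbered 3 alone (0.213), while the log2 fold change lay between -0.42 and -0.32 when single libraries were left out. With the lentiviral libraries numbered 1 and 2 alone, all 3 genes passed, CBX3 at a log2 fold change of 0.69 (adjusted p = 0.00103), SETDB1 at -0.34 (0.0479) and HDAC2 at -0.30 (0.0307). More genes passed in general in that fit, 4442 of 14770 against 2757 of 14720 with all libraries. It shares its libraries with the fit that picked these 3 genes.

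TRIM28 ran from 739.9 through a median of 958 to 1092 CPM in the lentiviral libraries, against 1099.8, 756 and 999 CPM in the untransduced ones. The ranges overlapped, with untransduced library 1 just above the highest lentiviral library. Its log2 fold change was -0.03 (95% interval -0.27 to 0.22). Of the other genes that did not pass, ATF7IP had -0.33 (-0.73 to 0.06) and CBX5 -0.20 (-0.49 to 0.10). CBX1 had -0.03 (-0.20 to 0.14), CHD3 0.01 (-0.22 to 0.25), CHD4 -0.01 (-0.39 to 0.38) and HDAC1 -0.08 (-0.30 to 0.13). The median of the 10 genes was -0.06, and that of all genes was 0.01.

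The untransduced libraries differed among themselves. Library 2 had the lowest of the 3 values of TRIM28 (756 CPM), CHD4 (606 CPM), HDAC1 (226 CPM) and CBX3 (137 CPM), and the highest of CBX5 (588 CPM), ATF7IP (60.5 CPM), SETDB1 (87.3 CPM) and HDAC2 (343 CPM). Without it, the number of genes that passed fell to 346, against 2757 with it. Summed myeloid markers, mainly LYZ, ran from 10.6 to 30.3 CPM in lentiviral libraries and from 26.0 to 37.2 CPM in untransduced ones, and summed T cell markers, mainly CD3D, from 3.70 to 8.07 CPM in lentiviral libraries and from 5.75 to 10.8 CPM in untransduced ones. Their part in these differences was not tested.

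**Figure D3:**
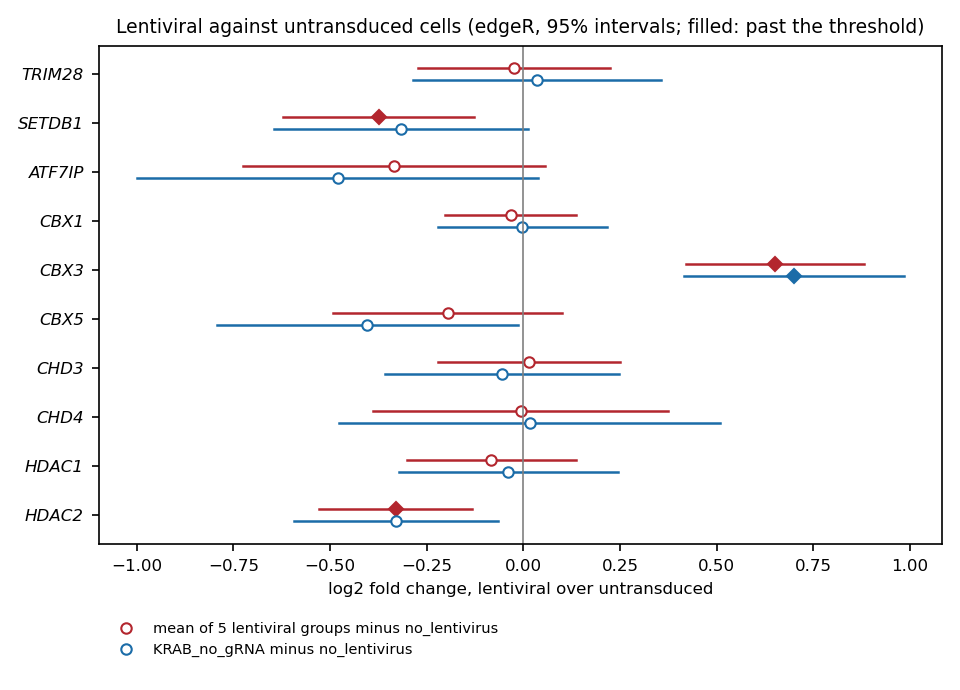
Log2 fold change (x axis) of the mean of the 5 lentiviral groups over no_lentivirus in red and of KRAB_no_gRNA over no_lentivirus in blue, for each co-repressor gene (y axis), with 95% intervals; filled symbols passed an adjusted p of 0.05. CBX3 passed at 0.65 and 0.70, and SETDB1 at -0.37 and HDAC2 at -0.33 passed for the mean of 5 groups only.

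KRAB_no_gRNA, the repressor without a guide, was set against no_lentivirus on its own; it is also part of the mean above and shares the same untransduced libraries. Of all genes 6.63% passed (2.87% higher and 3.76% lower), and of the 10 co-repressor genes CBX3 did. CBX3 had 244, 294 and 221 CPM in KRAB_no_gRNA, against 178, 137 and 152 CPM in no_lentivirus, with no overlap. Its log2 fold change was 0.70 ± 0.13, or 1.62-fold (1.33 to 1.98), with an adjusted p of 0.0132 by edgeR.

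CBX3 lost this call in 5 of 15 alternatives: with only the 2 groups compared in the fit (adjusted p = 0.120), without KRAB_no_gRNA library 1 (0.0539) or 2 (0.0536), without no_lentivirus library 2 (0.0702), and with the lentiviral library numbered 3 as the only KRAB_no_gRNA library (0.636). In the first and the last of these fits 0 of all genes passed (3056 and 1129 had an unadjusted p under 0.05), and the log2 fold change of CBX3 was 0.69 and 0.51 in them. HDAC2 stood at -0.33 (-0.59 to -0.07, adjusted p = 0.107) and SETDB1 at -0.32 (-0.64 to 0.01, adjusted p = 0.209). CBX5 was even across KRAB_no_gRNA at 331, 337 and 344 CPM, against 347, 588 and 404 CPM in no_lentivirus, and gave -0.40 (-0.79 to -0.01, adjusted p = 0.175). ATF7IP gave -0.48 (-0.999 to 0.04, adjusted p = 0.227).

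The makeup of the HP1 family was described from the levels per kilobase of coding sequence, with no test. CBX3 took 33.5 ± 3.70% of the summed HP1 level in the lentiviral libraries (SD, n = 15; 28.7% to 41.1%) and 28.4%, 16.9% and 23.04% in the untransduced libraries. CBX5 took 51.0 ± 4.58% in lentiviral and 60.4 ± 8.34% in untransduced libraries, and CBX1 took 15.5 ± 1.37% in lentiviral and 16.8 ± 2.77% in untransduced libraries. CBX5 was the largest of the 3 in every library, and the CBX3 share of every lentiviral library was above those of the untransduced ones, by a narrow margin over untransduced library 1.

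HDAC2 took 50.8 ± 1.86% of the summed HDAC1 and HDAC2 level in lentiviral libraries, against 50.01%, 60.01% and 55.4% in untransduced libraries 1, 2 and 3. Untransduced library 1 lay within the lentiviral range of 47.9% to 53.4%. CHD3 was the minor ATPase throughout, at 11.1 ± 1.40% of the summed CHD3 and CHD4 level in lentiviral and 10.9 ± 1.37% in untransduced libraries. CHD3 overlaps NAA38 and SCARNA21 in the annotation, both of them in the count tables, and the libraries do not keep strand, so some of its counts may belong to these genes. The same holds for CHD4 with SCARNA11 and for CBX5 with MIR3198-2. Whole gene spans were compared, not exons, so whether any counted read came from these genes is not known.

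**Figure D4:**
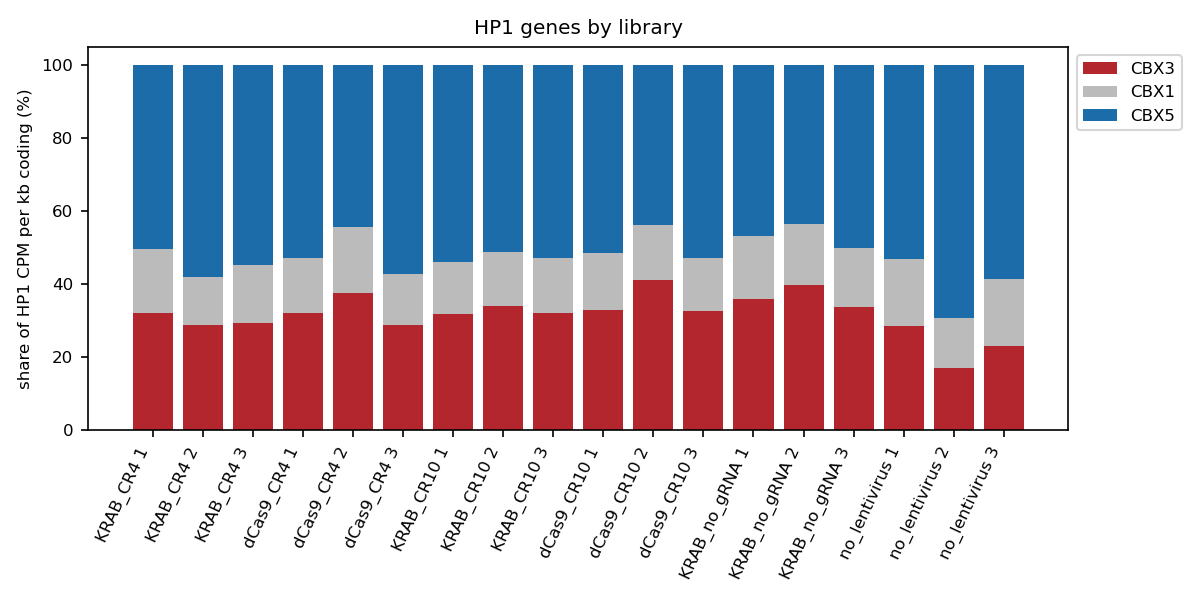
Share of the summed HP1 level (y axis, % of CPM per kb of coding sequence) taken by CBX3, CBX1 and CBX5 in each library (x axis, ordered by group). CBX3 takes 28.7% to 41.1% in the lentiviral libraries and 16.9% to 28.4% in the untransduced ones.

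The libraries numbered 3 were compared with those numbered 1 and 2 within the 5 lentiviral groups, in a fit with group and library number. Lentiviral libraries with the same number deviated from their group means together. Number 3 was singled out because earlier results of these data showed it apart. The p-values of this comparison thus describe a split already seen and are no independent test of it. The labels give the number as a replicate number only. Of all genes 53.8% passed (27.9% higher and 25.9% lower), and of the 10 co-repressor genes 0 were higher and 5 were lower in libraries numbered 3: CHD4, TRIM28, HDAC1, CBX3 and ATF7IP. Their median log2 fold change was -0.15 over all 10, and that of all genes was 0.03.

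CHD4 had 591, 591, 592, 652 and 660.0 CPM in the libraries numbered 3, against 666 to 1005 CPM (median 861) in those numbered 1 and 2, with no overlap. It averaged 617 ± 35.7 CPM in libraries numbered 3 (SD, n = 5) and 867 ± 106 CPM in the others (SD, n = 10), a log2 fold change of -0.46 ± 0.07 with an adjusted p of 6.19e-06 by edgeR. The fold changes of the 10 genes between KRAB and dCas9 with either gRNA lay between -0.18 and 0.28 on the same log2 scale. CHD4 passed in all 10 alternatives, with log2 fold changes of -0.51 to -0.43.

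TRIM28 had 864, 819.7, 781, 739.9 and 912 CPM in the libraries numbered 3, against 880.0 to 1092 CPM (median 987) in those numbered 1 and 2. It averaged 823 ± 67.8 CPM in libraries numbered 3 and 992 ± 61.8 CPM in the others, a log2 fold change of -0.25 ± 0.05 with an adjusted p of 0.000554 by edgeR. KRAB_no_gRNA library 3, at 912 CPM, overlapped the others. HDAC1 had 203 to 229.6 CPM in libraries numbered 3 and 242 to 276 CPM in the others, with no overlap, a log2 fold change of -0.23 ± 0.05 and an adjusted p of 0.00112.

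TRIM28 and HDAC1 passed in all 10 alternatives. CBX3 averaged 226 ± 23.8 CPM in libraries numbered 3 and 255 ± 26.3 CPM in the others (-0.15 ± 0.06, adjusted p = 0.0357), and ATF7IP averaged 35.4 ± 4.98 CPM in libraries numbered 3 and 43.6 ± 9.02 CPM in the others (-0.26 ± 0.11, adjusted p = 0.0419). Both overlapped, and each lost the call in 5 of 10 alternatives: with halved counts, and when 1 of 4 groups was left out (KRAB_CR4, KRAB_no_gRNA, dCas9_CR4 or dCas9_CR10 for CBX3, and KRAB_CR4, KRAB_CR10, KRAB_no_gRNA or dCas9_CR10 for ATF7IP), with adjusted p up to 0.166 for CBX3 and 0.157 for ATF7IP. The genes that did not pass were SETDB1 (-0.15, adjusted p = 0.0608), HDAC2 (-0.13, 0.0755), CHD3 (-0.13, 0.0984), CBX1 (-0.07, 0.331) and CBX5 (0.10, 0.363). With CHD4 lower, CHD3 took 12.7 ± 0.642% of the summed CHD3 and CHD4 level in libraries numbered 3 and 10.4 ± 0.951% in the others.

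**Figure D5:**
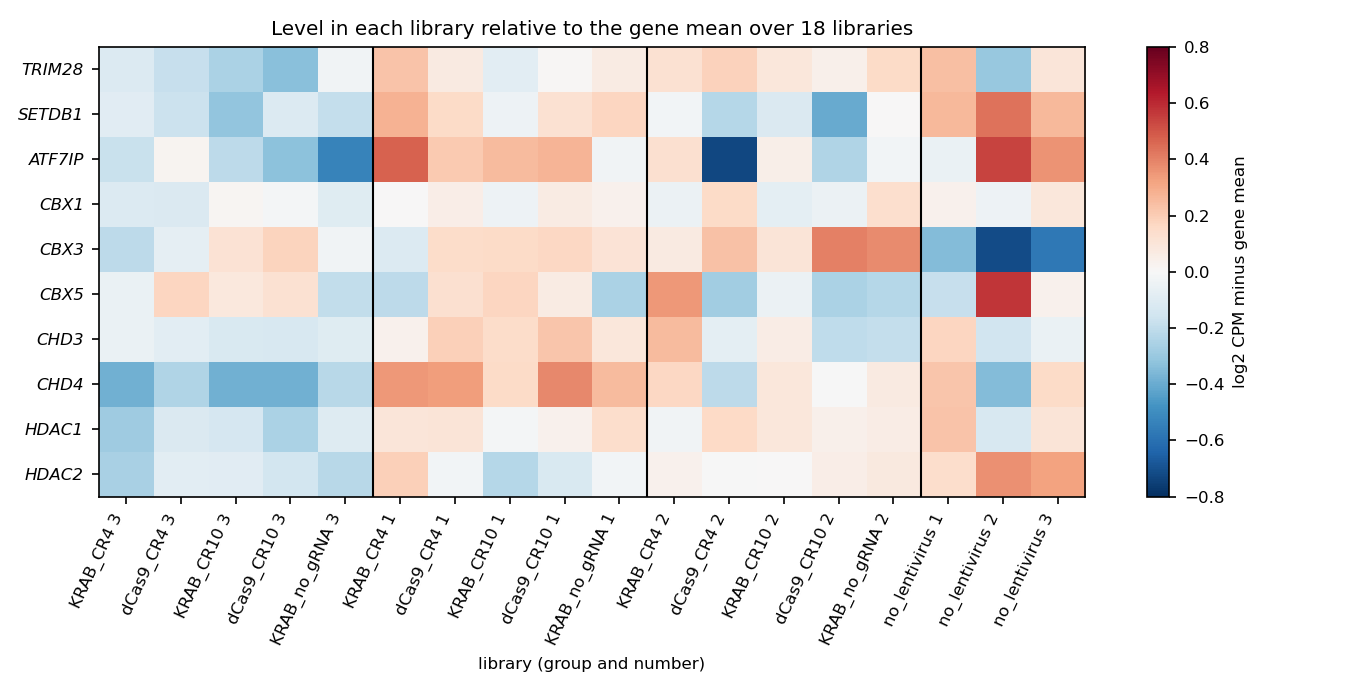
Deviation of each co-repressor gene (rows) from its mean over 18 libraries, as log2 CPM, with colour limits of -0.8 and 0.8; columns are the lentiviral libraries by number (3, then 1 and 2) and then the untransduced libraries. CHD4, TRIM28 and HDAC1 are low across the libraries numbered 3 (CHD4 at 591 to 660.0 CPM), and CBX3 is low in the untransduced ones.

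Other genes of the pathway were counted from 9 lists holding 62 tested genes, chosen with earlier results of these data known. In the 9 comparisons among lentiviral groups 0 of the 62 passed with edgeR, where 0% to 0.0272% of all genes tested did. In the mean of the 5 lentiviral groups against no_lentivirus 7 were higher and 5 were lower. Over all genes tested 7.55% were higher and 11.2% were lower, and the same background applies to each list in this comparison. Of the 9 other NuRD subunits tested 4 were higher and 1 was lower. MTA1, a scaffold subunit of NuRD, averaged 119 ± 7.17 CPM in lentiviral and 89.4 ± 4.29 CPM in untransduced cells (log2 fold change 0.42, adjusted p = 0.00406), and MBD2, a methyl-CpG-binding subunit, 55.3 ± 4.63 CPM in lentiviral and 42.1 ± 4.92 CPM in untransduced cells (0.39, adjusted p = 0.0137). The related scaffold gene MTA3 fell to 28.3 ± 2.40 CPM in lentiviral cells, against 39.1 ± 6.63 CPM in untransduced cells (-0.46, adjusted p = 0.00820).

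Of the 3 other genes of the TIF1 family, to which TRIM28 belongs, TRIM66 was higher at 10.9 ± 2.48 CPM in lentiviral cells, against 5.95 ± 0.614 CPM in untransduced cells (0.87, adjusted p = 0.0101). Of 6 H3K9 demethylases 2 were lower, KDM4A at 73.0 ± 15.9 CPM in lentiviral cells, against 115 ± 44.2 CPM in untransduced cells (-0.67, adjusted p = 0.0229) and KDM4C (-0.36, adjusted p = 0.0276). Of 10 genes of the SUMO machinery, which modifies KAP1, the E1 subunit gene UBA2 was lower at 476 ± 39.3 CPM in lentiviral cells, against 615 ± 21.1 CPM in untransduced cells (-0.37, adjusted p = 0.00906). Of 12 SIN3 and CoREST co-repressor genes 2 were higher, among them the SIN3 subunit gene ING2 (0.48, adjusted p = 0.0444), and 1 was lower, the deacetylase gene HDAC3 (-0.32, adjusted p = 0.0175). None of 4 HUSH and MORC2 genes, 5 other H3K9 methyltransferases, 9 HP1-binding proteins or their partners and 4 DNA methylation genes passed.

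With KRAB_no_gRNA alone against no_lentivirus, where 6.63% of all genes passed (2.87% higher and 3.76% lower), 2 of the 62 were higher, among them MTA1 (0.41, adjusted p = 0.0319), and 2 were lower, UBA2 (-0.41, adjusted p = 0.0435) and MTA3 (-0.52, adjusted p = 0.0404). These values share their untransduced libraries with those of the mean.

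In libraries numbered 3 against those numbered 1 and 2, 8 of the 62 genes were higher and 33 were lower. Over all genes tested 27.9% were higher and 25.9% were lower, and the same background applies to each list below. The HUSH complex, which silences transposons with SETDB1, and its partner MORC2 had 1 of 4 higher, MPHOSPH8 (0.64, adjusted p = 5.87e-06), and 3 lower, among them MORC2 (-0.38) and PPHLN1 (-0.25). Of the 9 genes for HP1-binding proteins or their partners 0 were higher and 6 were lower, among them SMCHD1 (-0.52), DAXX (-0.43) and CHAMP1 (-0.45). Of the 12 SIN3 and CoREST genes 0 were higher and 6 were lower, among them SAP30 (-0.56) and SIN3A (-0.38).

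The NuRD subunits had 2 of 9 higher, among them GATAD2B (0.27), and 3 lower, among them MTA2 (-0.49) and GATAD2A (-0.38). The other H3K9 methyltransferases had 1 of 5 higher, SETDB2 (0.38), and 3 lower, among them EHMT1 (-0.44) and SUV39H2 (-0.29). The demethylases had 1 of 6 higher, KDM4A (0.41), and 4 lower, among them KDM3A (-0.32) and KDM1A (-0.24). The SUMO genes had 1 of 10 higher and 5 lower, among them PIAS4 (-0.56), SUMO3 (-0.40) and SAE1 (-0.30). The DNA methylation genes had 1 of 4 higher, the de novo methyltransferase gene DNMT3A (0.73, adjusted p = 3.52e-07), and 2 lower, the maintenance genes UHRF1 (-0.44) and DNMT1 (-0.29). The TIF1 family had TRIM66 higher (0.52) and TRIM24 lower (-0.34) of 3.

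The genes whose pattern over the 18 libraries was most like that of TRIM28 were found by the root mean square difference of log2 CPM after each gene's mean was taken off, among 9306 genes with a mean of at least 10 CPM. They were SNRNP40 (0.0451), GTF3C5 (0.0548), ZDHHC3 (0.0565), DPF2 (0.0653) and ABCF2 (0.0656), where the median of all genes was 0.246 and TRIM28's own deviation from its mean was 0.172. Of the other co-repressor genes HDAC1 was the closest, at 0.0925 and 79th in the order, followed by CBX1 at 0.152, CHD3 at 0.174 and CHD4 at 0.187. A gene that did not vary would lie at 0.172, so CHD3 and CHD4 were no closer to TRIM28 than such a gene. CBX1 varied the least of the co-repressor genes. HDAC2 was at 0.204, and SETDB1 at 0.251, CBX3 at 0.313, CBX5 at 0.359 and ATF7IP at 0.363 were farther from TRIM28 than the median gene. These distances are descriptions over libraries that share the split by number and carry no test.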

How the data were processed

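The authors deposited 1 raw count per RefSeq accession for each of 18 libraries (40709 accessions, no header). Per the labels' protocols, oligo-dT-purified RNA was made into cDNA and tagged with Nextera transposase, which keeps no strand. Bowtie2, SAMtools, Picard, R 3.1.2, DESeq and hg19 are named per the submitters' processing notes, without roles. The counting tool is not given in the sources used here. All counts were even (0 odd), which was read as 2 counts per fragment. On that reading precision is that of the number of fragments, and it covers counting error only. Accessions were named from RefSeq (39324) and GENCODE (526) tables and summed to genes; 859 were kept as they are. There were 0 columns without a sample.

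Counts were filtered (filterByExpr, 14720 genes with 99.97% of counts), TMM-scaled and tested with edgeR 4.0.16 in R 4.3.3 (quasi-likelihood, Benjamini-Hochberg, threshold 0.05) on all 18 libraries with 6 group means. The comparison of library numbers used the 15 lentiviral libraries (14605 genes) with group and number. Alternatives included DESeq2 1.42.0, other scaling, no filter, halved counts, a replicate block and leaving out libraries. Over 12611 genes, all 30 pairs of same-numbered lentiviral libraries correlated above 0.1 in their deviations from group means (0.15 to 0.84), and 18 of 60 other lentiviral pairs did; with an untransduced library 5 of 15 same-numbered pairs did. Numbers were thus read as pairing the lentiviral libraries only.

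The 10 genes, the lists and the comparison of library numbers were chosen with earlier results of these data known. Named were these 10 in every comparison, up to 3 passing genes per list and comparison by smallest p, and the 5 genes closest to TRIM28. HBE1 and HNRNPA2B1 were added after their values were seen. Of the genes this rule names, 1 is not reported here.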

Additional observations from a re-analysis of the deposited data

How the results depend on the processing

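Over the alternatives run, no value of the 10 genes that had passed changed direction. In the 9 comparisons among lentiviral groups 0 of 10 passed under every alternative, the replicate block on the 15 lentiviral libraries included. At most 0.0959% of all genes passed in any of these fits.

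For KRAB_no_gRNA minus no_lentivirus, where 1 co-repressor gene passed, 2 passed with a replicate block over all 18 libraries (CBX3 and HDAC2, with HDAC2 at an adjusted p of 0.0465), 0 in edgeR with only the groups compared (3 had an unadjusted p under 0.05), 0 in edgeR with lentiviral libraries numbered 3 and all untransduced ones (1 had an unadjusted p under 0.05), and 0 to 3 when libraries were left out in turn. The 3, CBX3, CBX5 and HDAC2, came without no_lentivirus library 1.

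For the mean of 5 lentiviral groups minus no_lentivirus, where 3 passed, 0 did with lentiviral libraries numbered 3 alone (4 had an unadjusted p under 0.05), and 1 to 3 did when libraries were left out in turn. For libraries numbered 3, where 5 passed, 3 did with halved counts and 3 to 4 when a group was left out. SETDB1, which had not passed there, did with RLE scaling (adjusted p = 0.0496), with DESeq2 (0.0392) and without dCas9_CR10 (0.0298), and HDAC2 did with each gene taken as its highest transcript (0.0434). The causes were not tested.

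Counts over all genes moved more. KRAB_no_gRNA minus no_lentivirus had 976 genes, against 2007 with DESeq2, 2619 with the replicate block, 0 with only the groups compared (3056 had an unadjusted p under 0.05) and 27 to 2444 when libraries were left out. The mean of 5 groups had 2757, against 4195 with the block, 4442 with lentiviral numbers 1 and 2, 0 with numbers 3 (2777 had an unadjusted p under 0.05) and 346 to 3629 when libraries were left out. At 3 libraries a group, differences inside the printed intervals cannot be seen. Those printed per gene for KRAB against dCas9, other than the blocked one of CBX3, came from the fit without the block. With the block the intervals of the mean difference were narrower for each of the 10 genes, at -0.07 to 0.16 on the log2 scale for TRIM28.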
